A study of Homo sapiens with 12 samples.

Results

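Metallothioneins are small, cysteine-rich proteins that bind zinc and copper through the sulphur atoms of their cysteines. Zinc in excess activates MTF1, a zinc finger transcription factor that binds metal response elements in the promoters of the metallothionein genes and of SLC30A1, which encodes the zinc exporter of the plasma membrane. The level of these mRNAs is therefore widely used as a readout of the zinc available to a cell, although glucocorticoids, hypoxia and oxidant stress also induce metallothioneins. Here 8 genes were followed by their symbol among the 60504 genes of the deposited tables, namely 6 metallothioneins (MT2A, MT1E, MT1X, MT1M, MT1F and MT1G), the exporter SLC30A1 and the regulator MTF1.

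RNA was sequenced from T24, a human bladder cancer cell line, in 12 libraries. U11 is a small nuclear RNA of the minor spliceosome, which removes a rare class of introns. For the knockout, 2 libraries carried the label U11 knockout (CRISPR/Cas9 with a pair of guide RNAs, puromycin, and growth from a single cell) and were compared with 2 untreated T24 controls. The overexpression comparison set 6 libraries labelled U11 overexpression (a pcDNA3 plasmid carrying U11, with monoclonal selection) against 2 other untreated T24 controls. These 6 came as 2 libraries of each of 3 lines with the labels 79, 86 and 87, and what tells the lines apart is not given in the sources used here. All 12 libraries came from the same cell line, and differences between clones of T24 and effects of the U11 manipulation cannot be told apart. The labels do not say that replicates were separate cultures, so that p-values measure the spread between these libraries, which may be technical.

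The libraries differed in ways that touch the values below. In the knockout comparison the 10 most abundant genes held 45.5% to 49.6% of all TPM (transcript level per gene length, with an equal sum in every library), and protein-coding genes held 43.98% to 47.12%. In the overexpression comparison those shares were 7.06% to 7.56% and 94.25% to 94.87%. Levels of the 2 comparisons are therefore set side by side only with this caveat, and type of library and comparison cannot be told apart. Depth, read from the ratio of coverage to FPKM, spanned 13.65 to 15.17 aligned gigabases for knockout and 9.07 to 15.33 for overexpression. U11 itself, as the summed TPM of the RNU11 entries, was 21.4 and 23.8 in the controls and 31.6 and 37.4 in the libraries labelled U11 knockout, against the direction of that label. In the overexpression comparison it was 0.0334 and 0.623 in the controls, 0.183 and 0.412 in line 79, 3.98 and 3.72 in line 86, and 61.9 and 53.6 in line 87, so that line 79 lay within the range of its controls. The labels name polyA RNA and the study's methods ribosomal RNA depletion, and how well these libraries capture a small nuclear RNA was not tested. The study checked U11 by quantitative PCR, a separate measure not reported here, so these TPM values alone do not settle the U11 level of a line. The epithelial keratins KRT7, KRT8, KRT18 and KRT19 were abundant, with 90.3 TPM or more in every library, while the epithelial cadherin CDH1 and the uroplakins UPK1B, UPK2 and UPK3A stayed at 0.437 TPM or less. Of the urothelial transcription factors, PPARG was 18.9 to 28.4 TPM in the knockout comparison and 43.99 to 54.5 TPM in the other, and GATA3 was 2.38 to 5.61 TPM and 6.31 to 17.4 TPM.

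The 6 metallothioneins lie in one cluster on chromosome 16 and are near copies of each other. On the deposited hg38 coordinates, MT2A spans chr16:56608199-56609497, MT1E chr16:56625475-56627112, MT1M chr16:56632233-56633986, MT1F chr16:56657694-56660698 and MT1X chr16:56682424-56684196, all on the plus strand, and MT1G spans chr16:56666731-56668065 on the minus strand. SLC30A1 spans chr1:211571568-211578742 and MTF1 chr1:37809567-37859620, both on the minus strand. In GENCODE release 44 each of the 6 metallothioneins has 3 exons, and in MT2A, MT1E, MT1X, MT1M and MT1F 20 of 61 codons (32.8%) encode cysteine, against 18 of 507 (3.6%) in SLC30A1 and 21 of 753 (2.8%) in MTF1. The coding sequences of the 4 metallothioneins on which the results turn follow, 5′ to 3′, with the in-frame cysteine codons in capitals.
MT2A: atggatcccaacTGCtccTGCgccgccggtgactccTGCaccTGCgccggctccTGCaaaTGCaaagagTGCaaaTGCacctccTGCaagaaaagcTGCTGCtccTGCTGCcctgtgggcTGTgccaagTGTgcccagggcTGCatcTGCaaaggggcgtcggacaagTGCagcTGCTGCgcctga
MT1E: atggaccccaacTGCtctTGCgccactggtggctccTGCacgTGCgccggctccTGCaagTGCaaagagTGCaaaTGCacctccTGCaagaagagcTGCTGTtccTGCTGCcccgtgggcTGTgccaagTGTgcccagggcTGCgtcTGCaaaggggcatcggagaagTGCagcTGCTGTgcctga
MT1X: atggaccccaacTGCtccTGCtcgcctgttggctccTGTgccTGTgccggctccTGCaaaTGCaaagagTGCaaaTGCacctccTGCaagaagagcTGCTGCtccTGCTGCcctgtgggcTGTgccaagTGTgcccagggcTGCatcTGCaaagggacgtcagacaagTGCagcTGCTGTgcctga
MT1F: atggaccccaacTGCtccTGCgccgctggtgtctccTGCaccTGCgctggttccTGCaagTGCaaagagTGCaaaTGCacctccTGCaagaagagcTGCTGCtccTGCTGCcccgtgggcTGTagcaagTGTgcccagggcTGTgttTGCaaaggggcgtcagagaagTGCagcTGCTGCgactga
The frame of cysteine codons is shared, while some bases within and between these codons differ. MT2A and MT1E were 92.5% identical over the coding sequence, MT2A and MT1X also 92.5%, and MT1F and MT1X 88.7%, the lowest of the 15 pairs. Any read that falls in an identical stretch could be assigned to more than one gene. Of the windows of 50 bases in each transcript, 10.2% in MT2A, 5.3% in MT1E, 18.0% in MT1X and 6.1% in MT1F were found in another metallothionein entry, and no window of 100 or 150 bases was, in any of the 6. Reads were 2 × 150 bases per the study's methods, so that by exact match most positions separate these entries. The processed pseudogene entries span only 177 to 186 bases, about the length of the coding sequence. Windows that reach beyond it could therefore not match them, and near matches were not counted. Levels of near-identical genes remain uncertain, and these shares do not bound by how much.

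The pseudogene MT2P1 (chr4:68376323-68376505, plus strand) had the highest listed level of the 4 processed pseudogenes. It is a processed copy of MT2A, 95.7% identical over the coding sequence with 5 mismatches and 3 gap positions. The gap positions are the stop codon of MT2A, before which the entry ends. The bases that differ from MT2A are in capitals in its sequence.
MT2P1: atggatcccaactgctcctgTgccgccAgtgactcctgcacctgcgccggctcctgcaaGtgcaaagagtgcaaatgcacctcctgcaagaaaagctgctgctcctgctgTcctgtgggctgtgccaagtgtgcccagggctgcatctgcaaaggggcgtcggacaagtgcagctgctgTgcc
Its listed level was 82.0 to 138 TPM over the 12 libraries, which is 14.8% to 16.2% of the MT2A level for knockout and 4.70% to 6.33% for overexpression. Whether these reads came from MT2P1 or from MT2A was not tested. MT1F and MT1X also lie within the span that the tables give to MT1A on the same strand, MT1G lies opposite that span, and MT1X overlaps RP11-343H19.2. MTF1 overlaps RP11-109P14.8 on the other strand, and whether reads were counted by strand is not given in the sources used here.

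Promoter windows of 250 bases before the start were available for MT2A, MT1X, SLC30A1 and MTF1 (RefSeq, GRCh38.p14), and 3 are printed because MT2A, MT1X and SLC30A1 each had their 2 highest values of the overexpression comparison in line 79. Capitals mark the core of the metal response element, searched as TGCACNC or TGCGCNC on either strand.
MT2A: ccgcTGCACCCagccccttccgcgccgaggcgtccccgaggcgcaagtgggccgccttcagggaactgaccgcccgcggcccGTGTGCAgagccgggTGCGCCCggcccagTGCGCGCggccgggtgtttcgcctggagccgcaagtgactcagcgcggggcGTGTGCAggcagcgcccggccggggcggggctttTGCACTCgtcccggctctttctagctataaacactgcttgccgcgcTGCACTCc
MT1X: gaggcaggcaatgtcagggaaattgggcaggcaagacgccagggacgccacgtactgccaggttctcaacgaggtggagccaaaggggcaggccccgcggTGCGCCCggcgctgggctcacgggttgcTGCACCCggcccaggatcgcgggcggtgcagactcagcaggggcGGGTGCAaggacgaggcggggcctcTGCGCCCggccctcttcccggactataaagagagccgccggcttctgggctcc
SLC30A1: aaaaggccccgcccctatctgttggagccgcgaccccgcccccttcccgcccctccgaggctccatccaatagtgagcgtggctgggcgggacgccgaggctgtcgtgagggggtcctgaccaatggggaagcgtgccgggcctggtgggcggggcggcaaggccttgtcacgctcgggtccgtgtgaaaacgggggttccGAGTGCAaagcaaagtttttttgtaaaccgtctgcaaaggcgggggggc
The MT2A window (chr16:56608334-56608583, plus strand) held 7 matches, the nearest 8 bases before the start. The MT1X window (chr16:56682220-56682469, plus strand) held 4 matches between 150 and 53 bases before the start. The SLC30A1 window (chr1:211579162-211579411, minus strand) held 1 match, 49 bases before the start, and the MTF1 window held none of these letters. Among 35116 promoter windows of the same length, 24.8% held at least 1 match, 0.37% at least 4 and 0.0313% at least 7. A match is a description of the sequence, here in genes known beforehand as targets of MTF1, and binding of MTF1 was not measured. Whether the matches bear on the values of line 79 was not tested. The deposited entry of MT2A begins upstream of its RefSeq start and covers the printed window.

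The metallothionein signal of T24 was carried by a pair of genes. MT2A, the most widely expressed metallothionein, ranked above 99.02% to 99.09% of the genes with at least 1 TPM in the knockout comparison and above 99.47% to 99.69% in the overexpression comparison. MT1E followed at 98.0% to 98.75% and 98.82% to 99.09%. MT2A and MT1E together with MT1X, SLC30A1, MTF1, MT1M and MT1F passed the filter of at least 1 TPM in at least 2 of the libraries compared, which is 7 of the 8 genes. MT1G, a metallothionein of many epithelia, was listed at 0 in 10 of 12 libraries and at 0.107 and 0.0865 TPM in the other two, 1 control and 1 library labelled U11 knockout, and it was not tested. Mean coverage (aligned bases per position) ranged from 3413 to 8193 for MT2A, from 42.3 to 149 for MT1X and from 4.23 to 9.89 for MT1F, so that MT1F rests on far fewer reads.

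**Figure D1:**
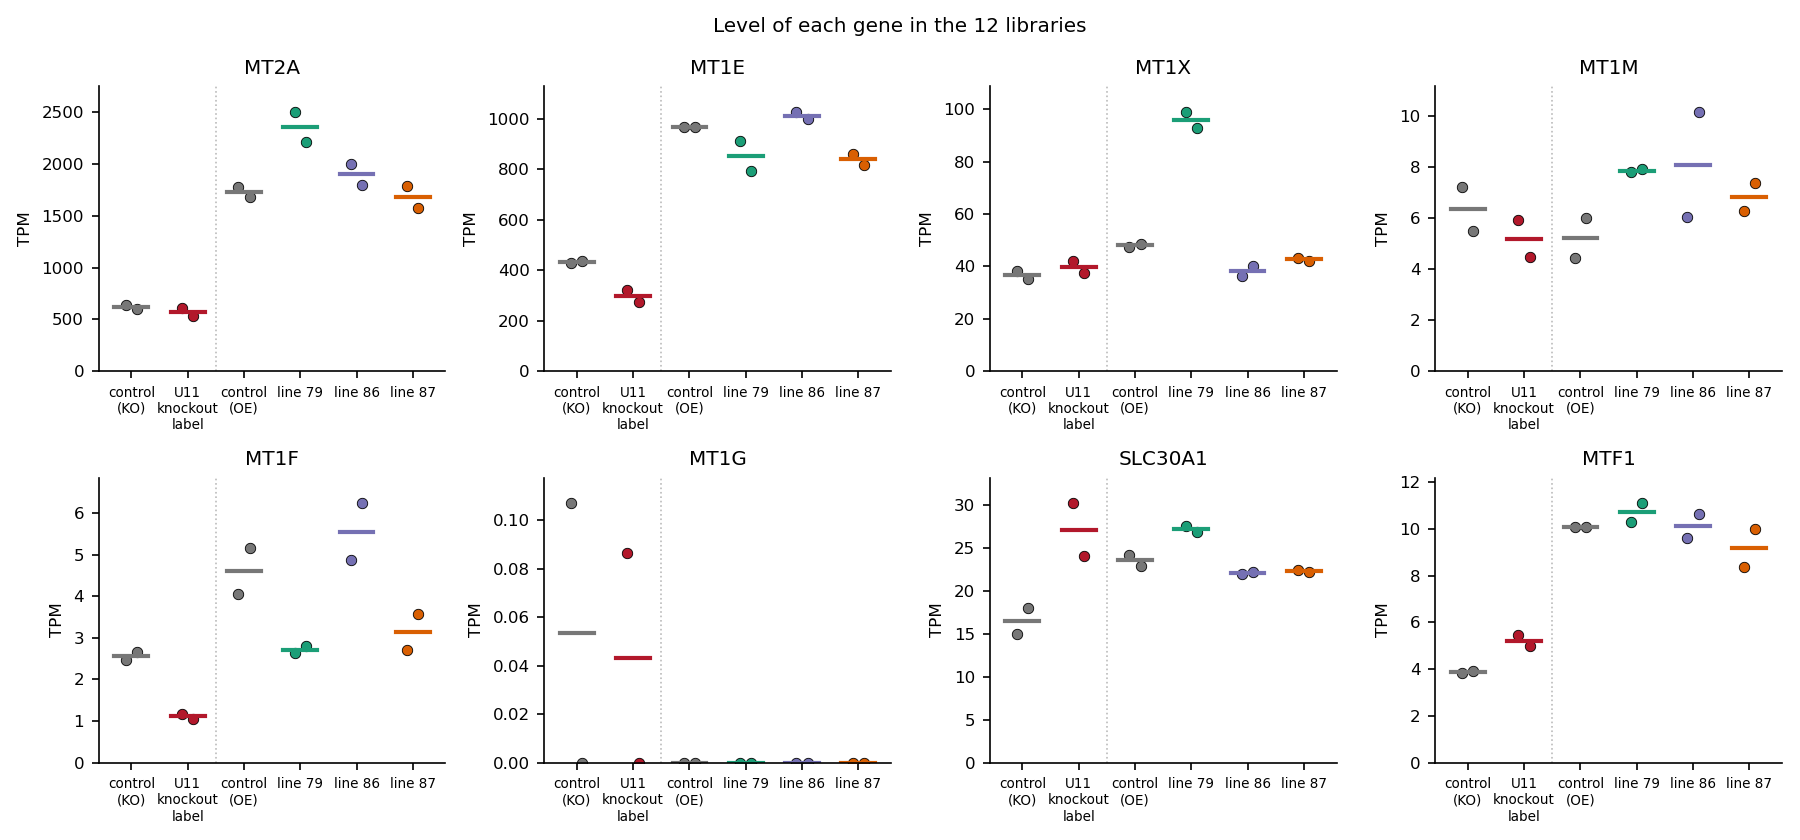
Level (TPM, linear axes from 0) of each of the 8 genes, with 1 point per library, a bar at the mean of the 2 libraries of a group, and a dotted line between the knockout and the overexpression comparison. MT1X sits at 92.9 and 99.0 TPM in line 79 and at 48.6 or less in the other libraries of the overexpression comparison. In the knockout comparison MT1X is 35.3 to 42.0 TPM. With protein-coding genes rescaled to one total it is 78.7 to 89.1 there, beside 98.6 and 104.7 in line 79. MT1F is lower in both libraries labelled U11 knockout (1.04 and 1.18) than in their controls (2.47 and 2.66).

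The order of the mean TPM was the same at its head in every group. MT2A stood first, then MT1E, then MT1X and then SLC30A1, and the libraries of neighbouring ranks did not overlap within any of the 6 groups. Below these 4 genes in TPM, MTF1 and MT1M changed places. MT1M was above MTF1 in the controls of the knockout comparison (means of 6.38 and 3.88 TPM, n = 2). Their ranges overlapped in the knockout-labelled libraries (5.20 and 5.22 TPM) and in line 86 (8.11 and 10.1 TPM). MT1F overlapped MT1M in the controls of the overexpression comparison (4.60 and 5.24 TPM) and in line 86 (5.54 and 8.11 TPM). Over all 20 metallothionein entries of the tables, 13 stayed under 1 TPM in every library. Of the 15 entries on chromosome 16, 5 had a mean of at least 1 TPM in both comparisons, and entries between them such as MT1L, MT1A and MT1B lay near 0. Level did not follow place in the cluster, since MT1X at its far end (74.22 kb from MT2A) had more TPM than MT1M (24.03 kb) or MT1F (49.49 kb).

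**Figure D2:**
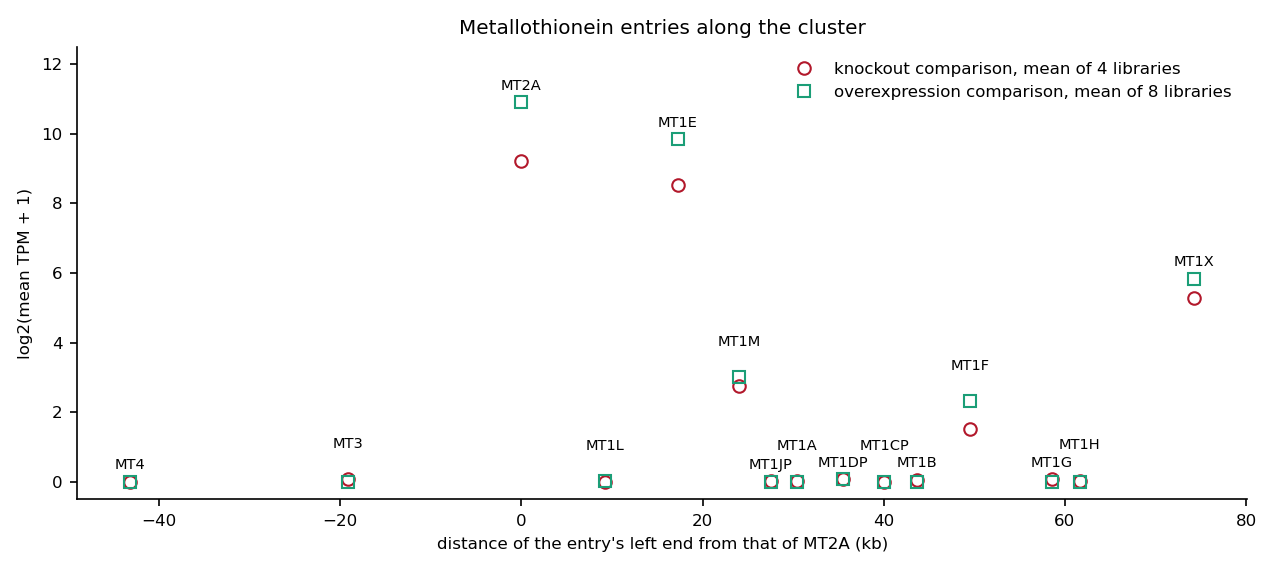
Mean level as log2(mean TPM + 1) of the 15 metallothionein entries on chromosome 16 against the distance of the entry's left end from that of MT2A in kb, with circles for the 4 libraries of the knockout comparison and squares for the 8 of the overexpression comparison. MT2A, MT1E, MT1X, MT1M and MT1F stand above the baseline, and the other entries between and beside them lie close to 0.

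The make-up of this signal differed between groups. The summed TPM of the 20 entries was 1248 and 1218 in the controls of the knockout comparison and 1112 and 965 in the knockout-labelled libraries. MT1E held 34.5% and 35.9% of it in these controls and 29.0% and 28.3% in the knockout-labelled libraries, while MT2A held 51.1% and 49.6% against 55.1% and 55.5%. In line 79 MT2A held 68.5% and 67.7% and MT1E 24.9% and 24.3%, whereas MT2A held 59.2% to 63.8% and MT1E 30.7% to 34.1% in the other 6 libraries of that comparison. The ratio of MT2A to MT1E was 2.75 and 2.79 in line 79 and 1.73 to 2.08 in those 6 libraries.

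**Figure D3:**
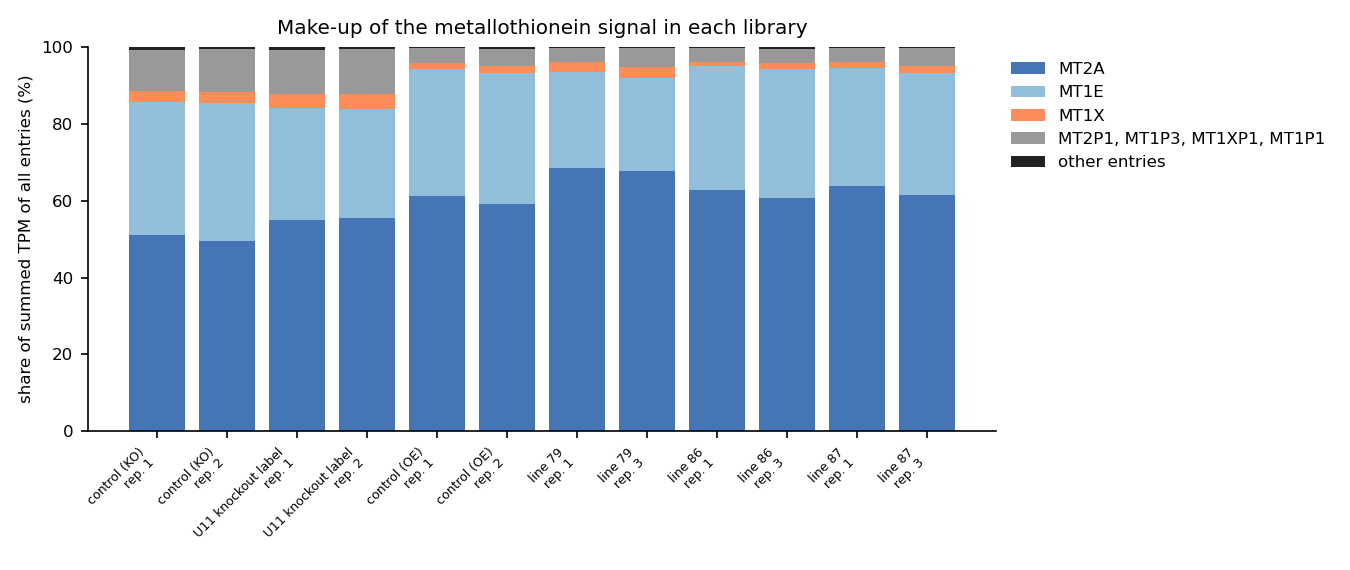
Share (%) of the summed TPM of the 20 metallothionein entries held by MT2A, MT1E, MT1X, the 4 processed pseudogenes and the other entries, with 1 bar per library. MT2A has its largest shares in line 79 (67.7% and 68.5%) and the pseudogenes theirs in the 4 libraries of the knockout comparison (10.6% to 11.8%).

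The knockout comparison asks which of these genes differ between the libraries labelled U11 knockout and their controls. MT1F was lower, SLC30A1 was higher, and MT1E was lower by less than the fold threshold (adjusted P = 0.0472 by limma), while MT2A, MT1X and MT1M overlapped between the groups. A gene was called when its unadjusted P was under 0.05 and its fold change at least 1.5, the thresholds of the study, in limma on log2(TPM + 1). Of 7 genes tested, 1 was called higher and 1 lower, where over all 14356 genes tested 8.61% were called higher and 3.15% lower. At a Benjamini-Hochberg adjusted P under 0.05 with the same fold, 1 of the 7 was called, against 6.85% of all genes. The median log2 fold change of the 7 was -0.11, beside 0.11 over all genes. Median ratio scaling moved that of all genes to -0.02, and with it the split of all calls from 1236 higher and 452 lower to 769 higher and 778 lower. Fold changes are therefore also given relative to the median of all genes.

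MT1F was 2.47 and 2.66 TPM in the controls and 1.18 and 1.04 TPM in the knockout-labelled libraries. The groups did not overlap, and both labelled libraries were near the filter of 1 TPM. The log2 fold change was -0.76 ± 0.12 (SE, n = 2 and 2 libraries, limma adjusted P = 0.0376), or -0.86 relative to the median of all genes. The adjusted P was 0.157 without the filter and 0.0434 to 0.191 with single libraries left out, above 0.05 for all but control replicate 2. In coverage units, an alternative chosen after seeing the data, it was -0.50 and was not called. In bulk RNA, fewer cells that express a gene and less of its RNA per cell cannot be told apart.

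MT1E was 431 and 437 TPM in the controls and 323 and 273 TPM in the knockout-labelled libraries. Here too the groups did not overlap, and the controls lay closer together than the labelled libraries. Its log2 fold change was -0.55 ± 0.10 (SE, limma adjusted P = 0.0472), or -0.65 relative to the median, and it was not called because it did not reach the 1.5-fold threshold. Its adjusted P was 0.315 without the filter, 0.076 without the mean-variance trend, 0.0556 in coverage units, and 0.17 and 0.162 without knockout replicate 1 or 2. It was called with FPKM (-0.65), with median ratio scaling (-0.695), with protein-coding genes rescaled to one total (-0.59) and without the knockout replicate 1 (-0.67). MT2A was 637 and 604 TPM in the controls and 613 and 535 TPM in the knockout-labelled libraries, which overlapped, and its log2 fold change was -0.11 ± 0.09 (SE, adjusted P = 0.460). MT1X overlapped as well, with 38.2 and 35.3 TPM against 42.0 and 37.7 TPM and a log2 fold change of 0.11 ± 0.11 (SE, adjusted P = 0.530), close to the shift of all genes. MT1M overlapped with 7.24 and 5.51 TPM against 5.92 and 4.48 TPM (log2 fold change -0.25 ± 0.19, adjusted P = 0.430).

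SLC30A1 was 15.0 and 18.0 TPM in the controls and 30.1 and 24.05 TPM in the knockout-labelled libraries. No labelled library reached down to a control, and knockout replicate 1 was the highest of the 12 libraries. The log2 fold change was 0.68 ± 0.16 (SE, limma adjusted P = 0.0724), or 0.57 relative to the median. The call was lost with FPKM (0.57), with median ratio scaling (0.54), without control replicate 1 (0.56) and without knockout replicate 1 (0.52), with the direction kept in each. MTF1 was 3.83 and 3.93 TPM in the controls and 5.45 and 4.98 TPM in the knockout-labelled libraries, which did not overlap, and its log2 fold change of 0.35 ± 0.12 (SE, adjusted P = 0.143) was under the fold threshold. Among 8 markers of blood, endothelial and muscle cells, the endothelial cadherin CDH5 moved with the same groups, at 4.75 and 4.85 TPM in the controls and 0.0293 and 0.0316 TPM in the knockout-labelled libraries. The sum of the other 7 markers was 0.88 to 1.04 TPM in the controls and 0.698 to 0.991 TPM in the labelled libraries. The epithelial marker EPCAM went from 0.821 to 1.23 TPM down to 0.0904 to 0.148 TPM. The sum of the 6 epithelial markers, EPCAM included, overlapped, at 2050 to 2180 TPM in the controls and 1820 to 2090 TPM in the labelled libraries. The part of the CDH5 and EPCAM differences between the lines in the results above was not tested.

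**Figure D4:**
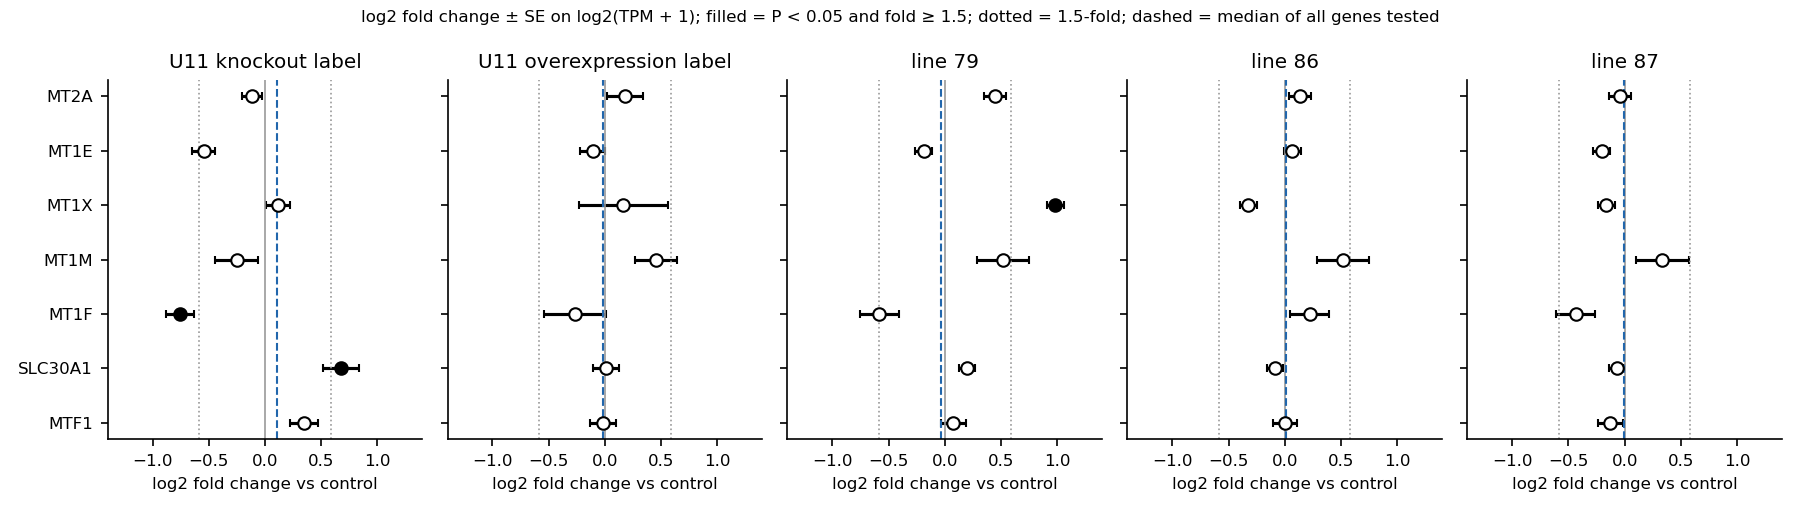
Log2 fold change against control ± SE (limma on log2(TPM + 1)) of the 7 genes tested in each of 5 comparisons, with filled points for P under 0.05 and a fold of at least 1.5, dotted lines at 1.5-fold and a dashed line at the median of all genes tested. Filled points are MT1F (-0.76) and SLC30A1 (0.68) in the knockout comparison and MT1X (0.98) in line 79.

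In the overexpression comparison, the 6 libraries were set against their 2 controls. None of the 7 genes was called by limma and 1, MT1M, had an unadjusted P under 0.05, where 0.767% of 15768 genes were called higher and 1.16% lower, or 0.165% with the adjusted P. MT2A had the lowest value of 1573, a median of 1903 and the highest of 2505 TPM over the 6 libraries, around the controls of 1779.6 and 1679 TPM. MT1X ranged from 36.4 over a median of 42.8 to 99.0 TPM, with both controls (47.5 and 48.6 TPM) inside that range. For MT1M the lowest, median and highest of the 6 were 6.03, 7.59 and 10.2 TPM and the controls 4.46 and 6.03 TPM. Its log2 fold change of 0.46 ± 0.19 (SE, limma adjusted P = 0.805) did not reach the fold threshold, and without control replicate 2 it did (0.64). SLC30A1 ranged from 22.0 to 27.5 TPM around its controls (24.1 and 22.9 TPM), and MTF1 from 8.36 to 11.1 TPM around controls of 10.1 TPM in both. The median log2 fold change of the 7 genes was 0.01, beside -0.02 over all genes.

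This near absence of a common change covered differences among the 3 lines. In a fit with each line as its own group, an F test among the lines at an adjusted P under 0.05 called MT1X, MT2A and MT1F, which is 3 of 7 genes, where 16.0% of all genes were called. The lines share their controls, so their values against control are given side by side.

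Line 79 stood apart by MT1X. MT1X, a metallothionein present in most tissues, was 99.0 and 92.9 TPM in line 79, 36.4 and 40.1 TPM in line 86, 43.3 and 42.3 TPM in line 87, and 47.5 and 48.6 TPM in the controls. Both libraries of line 79 lay above all others of this comparison, and those of lines 86 and 87 lay below both controls. The log2 fold change against control was 0.98 ± 0.08 (SE, limma adjusted P = 0.00112) in line 79, -0.32 ± 0.08 in line 86 (adjusted P = 0.120) and -0.16 ± 0.08 in line 87 (adjusted P = 0.332). The F test among lines gave an adjusted P of 0.00047, and from 0.00249 to 0.00674 when each of the 8 libraries was left out in turn. Line 79 exceeded line 87 by 1.15 (log2, adjusted P = 0.000655). The library titles carry 2 prefixes, whose meaning is not given in the sources used here, each with 1 control and 1 library of every line, and within them the log2 difference of line 79 from control was 1.04 and 0.92.

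MT2A, the most abundant member, was 2505 and 2215 TPM in line 79, 2006 and 1800.3 TPM in line 86, 1790.2 and 1573 TPM in line 87, and 1779.6 and 1679 TPM in the controls. Only the libraries of line 79 lay above every library of the other 3 groups. The log2 fold change was 0.45 ± 0.10 (SE, limma adjusted P = 0.0387) in line 79, 0.14 ± 0.10 in line 86 (adjusted P = 0.628) and -0.04 ± 0.10 in line 87 (adjusted P = 0.872), and none reached 1.5-fold. In line 79 the adjusted P was 0.234 without the filter, 0.0668 without the trend and 0.0489 to 0.179 with single libraries left out. The difference of line 79 from line 87 was 0.49 ± 0.10 (SE, adjusted P = 0.0272). Within the title prefixes, line 79 differed from control by 0.49 and 0.40. The F test gave an adjusted P of 0.0406, which became 0.0583 to 0.174 when any 1 of the 8 libraries was left out, 0.264 without the filter on low values and 0.0726 without the mean-variance trend. The listed level of MT2P1 moved alongside, with a log2 fold change of 0.38 ± 0.13 (SE, adjusted P = 0.122) in line 79.

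MT1F was 2.64 and 2.80 TPM in line 79, 4.86 and 6.23 TPM in line 86, 2.72 and 3.58 TPM in line 87, and 4.05 and 5.16 TPM in the controls. Its values in lines 79 and 87 were below both controls and those in line 86 overlapped them, so that MT1F and MT1X did not share an order among the lines. The log2 fold change was -0.58 ± 0.17 (SE, limma adjusted P = 0.0926) in line 79, just under the fold threshold, 0.22 ± 0.17 in line 86 (adjusted P = 0.655) and -0.43 ± 0.17 in line 87 (adjusted P = 0.262). Line 79 was called against control with a pseudocount of 0.1 and without control replicate 1 (-0.73 in both), with protein-coding genes rescaled (-0.59) and without its replicate 3 (-0.615), and line 87 without its replicate 3. Line 79 was lower than line 86 by a log2 difference of -0.81 ± 0.17 (SE, adjusted P = 0.0286). The F test gave an adjusted P of 0.0424, and 0.0552 to 0.191 when any 1 library was left out, 0.219 without the filter, 0.0529 with FPKM, 0.0501 with median ratio scaling and 0.0678 in coverage units.

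MT1E did not follow MT2A. It was 911 and 795 TPM in line 79, 1028 and 999 TPM in line 86, 862 and 817 TPM in line 87, and 967 and 969 TPM in the controls. Lines 79 and 87 lay below the controls and line 86 above them, with log2 fold changes of -0.19 ± 0.08 (SE, limma adjusted P = 0.202), -0.21 ± 0.08 (adjusted P = 0.232) and 0.07 ± 0.08 (adjusted P = 0.783) respectively. The F test among lines gave an adjusted P of 0.0867 for MT1E and 0.057 for SLC30A1, and for SLC30A1 it was 0.0353 with FPKM, 0.0371 with median ratio scaling, 0.0402 without the filter, 0.0225 in coverage units and 0.0399 with protein-coding rescaling. SLC30A1 was 27.5 and 26.8 TPM in line 79, 22.0 and 22.2 TPM in line 86, 22.5 and 22.2 TPM in line 87, and 24.1 and 22.9 TPM in the controls. Line 79 was again above all other libraries of this comparison. Its log2 fold change against control was 0.20 ± 0.07 (SE, limma adjusted P = 0.150), well under the fold threshold. MT1M was 7.81 and 7.94 TPM in line 79, 6.03 and 10.2 TPM in line 86 and 6.29 and 7.37 TPM in line 87, with log2 fold changes of 0.52, 0.52 and 0.34 that did not pass the test. In line 86 MT1M was called without its replicate 1 (0.85). MTF1 was 10.3 and 11.1 TPM in line 79, 9.62 and 10.6 TPM in line 86 and 8.36 and 9.98 TPM in line 87, and the 3 lines overlapped each other or the controls.

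Counted by the thresholds of the study, line 79 had 1 of 7 genes higher and none lower, where 2.43% of all genes were called higher and 5.52% lower (5.63% with the adjusted P). In line 86 no member was called and 1 (MT1X) had an unadjusted P under 0.05, and over all genes 1.59% were higher and 2.01% lower (1.37% adjusted). In line 87 no member was called and 2 (MT1E and MT1F) had an unadjusted P under 0.05, and over all genes 2.08% were higher and 3.05% lower (2.65% adjusted). Between lines 79 and 86, MT1X and MT1F passed the adjusted P and the fold, where 7.49% of all genes did. MT1X alone did so between lines 79 and 87 (6.45% of all genes) and no member between lines 86 and 87 (4.01%). CDH5 was 32.2 and 34.1 TPM in line 79 and 3.08 to 5.28 TPM in the other 6 libraries of this comparison, while the sum of the other 7 markers of blood, endothelial and muscle cells was 2.03 to 2.32 TPM in line 79 and 0.76 to 2.34 TPM elsewhere. The part of this difference in the values of line 79 was not tested. U11 was at most 0.412 TPM in line 79, the line in which MT1X and MT2A were highest, and 53.6 and 61.9 TPM in line 87.

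The genes whose levels were most like MT2A were sought over the 8 libraries of the overexpression comparison, among 11164 genes with a mean of at least 5 TPM. By Pearson's r of log2(TPM + 1), which is a description over libraries that share lines and title prefixes, the highest were MIR210HG (0.983), GAPDH (0.982), PLOD1 (0.979), KRT8 (0.977) and PPARD (0.97). MIR210HG is the host transcript of the hypoxia-responsive microRNA miR-210, GAPDH is a glycolytic enzyme, PLOD1 is a collagen lysyl hydroxylase and KRT8 is an epithelial keratin. Whether hypoxia or another condition differed between these libraries was not tested. The mean level of MIR210HG was 6.11 TPM in the controls, 14.0 TPM in line 79, 8.72 TPM in line 86 and 6.0 TPM in line 87. The lowest were NOC3L (-0.994), MPP5 (-0.981) and METTL10 (-0.976). Among the members, r with MT2A was 0.815 for SLC30A1, 0.791 for MT1X, 0.318 for MTF1, 0.246 for MT1M, -0.069 for MT1E and -0.48 for MT1F.

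The other genes of metal handling were read from 5 lists. Of the 9 further SLC30 genes, listed by family as zinc exporters (SLC30A2 to SLC30A10), 5 were tested. Their median log2 fold change in the knockout comparison was 0.38, beside 0.11 over all genes. There 1 was called higher (8.61% of all genes were) and none lower (3.15%). It was SLC30A6, a zinc transporter of the Golgi, at 29.8 and 14.9 TPM against 10.6 and 11.9 TPM in the controls (0.85 ± 0.33, SE, limma adjusted P = 0.165), and without knockout replicate 1 its log2 fold change was 0.37 and it was not called, nor was it with FPKM, coverage units or protein-coding rescaling. By limma no gene of this list was called in the overexpression comparison or in any line. At an unadjusted P under 0.05 there were 0 in the former, 1 each in lines 79 and 87 and 0 in line 86 (over all genes 6.0%, 24.1%, 17.8% and 13.5%).

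Of 14 zinc importers, 11 were tested. In the knockout comparison SLC39A8, a zinc and manganese importer, was 9.32 to 10.8 TPM in the controls and 19.0 to 20.0 TPM in the knockout-labelled libraries (log2 fold change 0.90 ± 0.12, SE, limma adjusted P = 0.0262), and it was called in all 4 scaling and unit alternatives (0.59 to 0.89). It was the only importer called there (1 of 11, beside 8.61% of all genes higher and 3.15% lower), and the median of the list was 0.10, near that of all genes. In line 79, 2 of the 11 importers were called lower, where 5.52% of all genes were. SLC39A13 was 38.2 to 40.1 TPM against 66.8 to 73.1 TPM in the controls (-0.82 ± 0.09, adjusted P = 0.00354), and SLC39A11 was 4.95 to 5.54 TPM against 8.16 to 14.9 TPM (-0.95 ± 0.26, adjusted P = 0.0709), the latter not called without control replicate 1 (-0.55). SLC39A1 alone of the 11 was called lower in line 86 and in line 87, where 2.01% and 3.05% of all genes were. Its controls stood at 56.6 and 171 TPM. Without control replicate 2 its log2 fold change fell to between -0.43 and -0.32, and it was called in neither line. In line 86 the call of SLC39A1 held with only 1 of the 8 libraries left out in turn.

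All 9 copper handling genes were tested, and 2 were called higher in the knockout comparison, where 8.61% of all genes were, with a median of 0.20. ATP7A, a copper-exporting ATPase, was 1.93 to 2.36 TPM in the controls and 3.53 to 4.15 TPM in the knockout-labelled libraries (0.62 ± 0.15, SE, limma adjusted P = 0.0717), and SLC31A2 was 1.68 to 1.75 TPM and 2.65 to 3.59 TPM (0.59 ± 0.16, adjusted P = 0.0907). Both calls were lost with FPKM and with median ratio scaling, and without control replicate 1 or knockout replicate 1, and that of SLC31A2 also in coverage units. By limma none was called in the overexpression comparison or in a line, and at an unadjusted P under 0.05 there were 0 in the former, 2 in line 79 and 1 each in lines 86 and 87 (over all genes 6.0%, 24.1%, 13.5% and 17.8%).

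All 10 genes of metal and oxidant stress were tested, and 2 were called higher in the knockout comparison, where 8.61% of all genes were, with a median of 0.19. SLC7A11, the cystine importer that feeds glutathione synthesis, was 7.85 to 9.89 TPM in the controls and 21.6 to 24.3 TPM in the knockout-labelled libraries (1.29 ± 0.15, SE, limma adjusted P = 0.021). HMOX1, the inducible haem oxygenase, was 18.3 to 18.6 TPM and 27.9 to 29.0 TPM (0.60 ± 0.10, adjusted P = 0.0366), a call lost under FPKM, median ratio scaling and protein-coding rescaling, with values down to 0.45, and without knockout replicate 2 (0.57). In line 79 HMOX1 was 54.9 to 61.3 TPM against 25.8 to 26.6 TPM in the controls (1.12 ± 0.08, adjusted P = 0.000982), and SLC7A11 was 19.1 to 20.6 TPM against 31.8 to 32.7 TPM (-0.67 ± 0.08, adjusted P = 0.00546). Over all genes 2.43% were called higher in line 79 and 5.52% lower. HMOX1 and SLC7A11 thus had the same sign in the knockout comparison and opposite signs in line 79. In lines 86 and 87 both were above control but under the fold threshold (HMOX1 0.46 and 0.28, SLC7A11 0.57 and 0.53). HMOX1 was also called in the overexpression comparison (0.62, limma adjusted P = 0.809), where 0.767% of all genes were called higher. It was 31.8 to 61.3 TPM in the 6 overexpression libraries, all above the controls (25.8 to 26.6 TPM). The call was lost without either library of line 79 or either control. The median of the list in line 79 was -0.24, beside -0.03 over all genes.

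Of 8 glucocorticoid-induced genes, 7 were tested, and 3 were called higher in the knockout comparison, where 8.61% of all genes were, with a median of 0.09. SGK1, a kinase that regulates ion transport, was 29.0 to 32.2 TPM in the controls and 73.9 to 80.0 TPM in the knockout-labelled libraries (1.30 ± 0.10, SE, limma adjusted P = 0.0106). KLF9 was 0.770 to 0.903 TPM and 1.93 to 2.26 TPM (0.75 ± 0.13, limma adjusted P = 0.043). Both of its controls were under 1 TPM. KLF9 thus passed the filter only through the knockout-labelled libraries, where it was high, and its call carries no weight of its own. TSC22D3, which encodes the glucocorticoid-induced leucine zipper, was 3.63 to 4.14 TPM and 6.77 to 6.93 TPM (0.69 ± 0.12, limma adjusted P = 0.0448), a call lost with FPKM and median ratio scaling. Of the 7 tested, 4 were higher. FKBP5 went the other way, at 8.82 to 9.11 TPM in the controls and 6.39 to 6.44 TPM in the knockout-labelled libraries (-0.43 ± 0.11, limma adjusted P = 0.0869). ERRFI1 was lower too (-0.32 ± 0.11, limma adjusted P = 0.146), and neither was called. By limma none was called in line 79, where 4 of 7 had an unadjusted P under 0.05 (24.1% of all genes did). In line 87 KLF9 alone was called, at 1.75 to 1.84 TPM in the controls and 3.46 TPM in both libraries. Its log2 fold change was 0.67 ± 0.11 (limma adjusted P = 0.0276), and it was not called with FPKM (0.48). Of all genes, 2.08% were called higher in line 87.

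**Figure D5:**
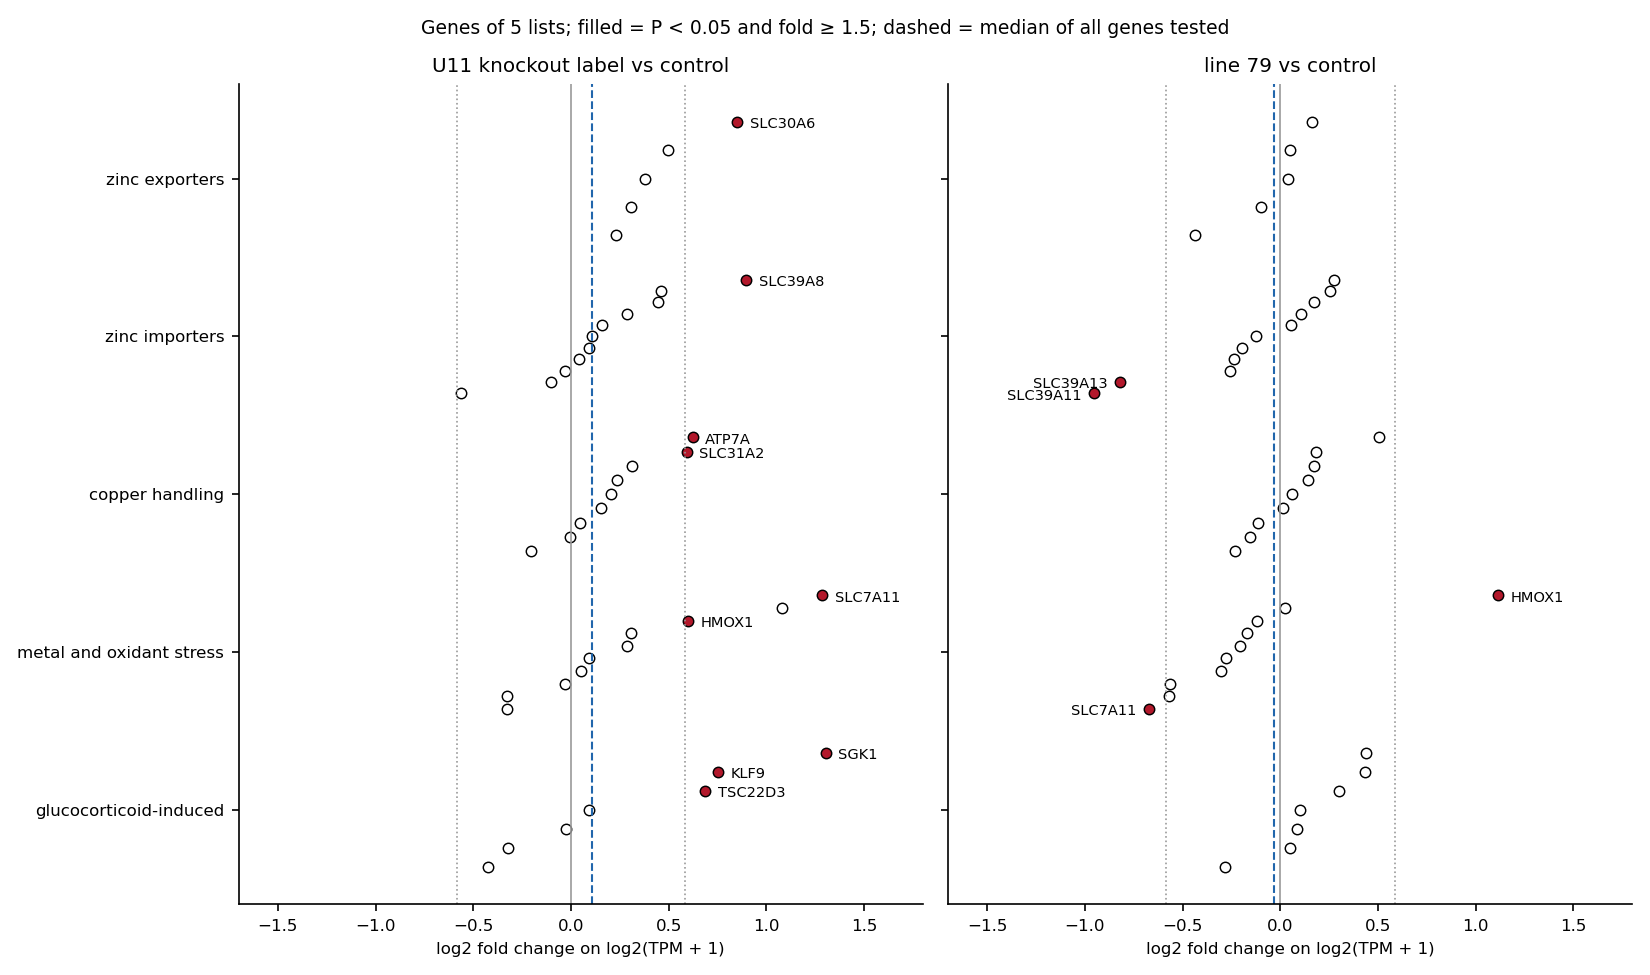
Log2 fold change (limma on log2(TPM + 1)) of each tested gene of the 5 lists, with the knockout comparison on the left and line 79 on the right, filled points for genes past both thresholds, dotted lines at 1.5-fold and a dashed line at the median of all genes tested. SLC7A11 and SGK1 lie farthest to the right in the knockout comparison (1.29 and 1.30), and HMOX1 does in line 79 (1.12) with SLC39A11, SLC39A13 and SLC7A11 on the left.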

How the data were processed

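RNA from T24 cells was sequenced in 12 libraries. The labels name polyA RNA and a TruSeq kit, and the study's methods name ribosomal RNA depletion. The authors trimmed reads with Fastp, aligned them to hg38 with Hisat2 and ran Stringtie per library (versions not given in the sources used here). The authors deposited coverage, the signal of mean aligned bases per position, together with FPKM and TPM for each gene. The build is also in the submitters' processing notes. No counts were in these files, so the study's DESeq2 test was not run and TPM carries no counting error. The spread between libraries gave the precision.

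limma 3.58.1 in R 4.3.3 (lmFit, eBayes with a mean-variance trend) was fitted to log2(TPM + 1) over every gene that reached 1 TPM in at least 2 libraries of the fit, and fold changes understate those of low genes. P-values were adjusted over all genes tested (Benjamini-Hochberg). The fit was tested on simulated data. The knockout fit used 4 libraries, the overexpression fit 8, and the fit of the lines 4 groups over the same 8. Groups came from the labels. All 8 members were named, with at most 4 genes per list and comparison past both thresholds, by size, and the 5 genes most and 3 least like MT2A. RNU11, CDH5, EPCAM and MT2P1 were named as checks, and FKBP5 and ERRFI1 as list genes that went lower. Members and lists were chosen with earlier results of these data known. Alternatives were a pseudocount of 0.1, FPKM, median ratio scaling, no filter, 1 TPM in every library, no trend, a replicate block, all 12 libraries in one fit, the mean of each line, adjusted P and each library left out. Coverage units and protein-coding rescaling were chosen after seeing the data. Sequences are from GENCODE release 44 and RefSeq, read with Python 3.11.15. For MT1E the annotated transcript of 61 codons was used.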

Additional observations from a re-analysis of the deposited data

Results flagged for a closer look

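The effect against control differed among lines 79, 86 and 87 by the F test of the limma fit for 3 genes. For MT1X the adjusted P was 0.00047, with log2 fold changes of 0.98, -0.32 and -0.16. For MT2A it was 0.0406, with 0.45, 0.14 and -0.04. For MT1F it was 0.0424, with -0.58, 0.22 and -0.43. No library stood out from the other 5 of the 6 overexpression libraries by Dixon's criterion in any of the genes. That criterion looks for 1 library apart from the rest. It misses a line whose 2 libraries lie apart together, as those of line 79 did for MT1X, so it says nothing about the lines.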

How the results depend on the processing

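Of the counts of members called, those in the knockout comparison went from 2 to 1 with coverage in place of TPM (SLC30A1 alone) and with the adjusted P (MT1F alone), and ranged from 1 to 2 when single libraries were left out. Line 79 went from 1 to 2 with a pseudocount of 0.1 and with protein-coding genes rescaled, both by MT1F, and ranged from 1 to 2. The overexpression comparison and lines 86 and 87 each ranged from 0 to 1 with single libraries left out and had 0 under the other alternatives run. Members that differed among lines went from 3 to 5 with the unadjusted P and with the replicate block, both by MT1E and SLC30A1, were 4 with protein-coding rescaling, 2 without the filter (MT1X and SLC30A1) and 2 without the trend (MT1X and MT1F), and only MT1X remained (1 to 1) with any library left out. In the knockout comparison, protein-coding rescaling called 3 members (MT1E, MT1F and SLC30A1). FPKM and median ratio scaling each called 2 there, with MT1E in place of SLC30A1. Where a group was left with 1 library, that library was assumed to vary like the others. Reversed signs were MT1X in the knockout comparison (-0.034 with median ratio scaling), MTF1 in the overexpression comparison (0.00 with median ratio scaling, -0.045 to 0.029 with libraries left out), and MTF1 in line 86 (-0.013 with FPKM, -0.006 with median ratio scaling, -0.062 to 0.069 with libraries left out). With libraries left out, MT1X (-0.008 to 0.28) and SLC30A1 (-0.027 to 0.049) in the overexpression comparison and MT2A in line 87 (-0.136 to 0.051) also changed sign. The cause was not tested.

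Shared replicate numbers of the knockout comparison were not shown to pair its libraries (r = 0.024 of the deviations from group means over 14356 genes). With the replicate block the same members were called (2), with an adjusted P of 0.122 for MT1F and 0.0921 for MT1E, and calls over all genes went from 1688 to 1706, or from 984 to 147 with the adjusted P. Deviations of libraries with the same title prefix correlated at 0.07 to 0.15 over 6 pairs of groups of the overexpression comparison, and the block changed no member call there other than the F test above. Depth was known only as aligned bases, so no interval on single TPM values was computed, and MT1F and MT1G rest on low coverage.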
